A study of Mus musculus with 24 samples.

Results

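The genes described here encode 38 lysosomal hydrolases other than the cathepsins, together with the cofactors that some of these enzymes need. They are 16 glycosidases and glycosylasparaginase, a group of 7 made up of sulfatases, the sulfatase-activating protein Sumf1 and the acetyltransferase Hgsnat, 9 hydrolases of lipids and thioesters with their activator proteins, and 6 peptidases, phosphatases and a nuclease. They were taken as a list of gene symbols, and each row of the authors' deposited tables whose symbol equals one of them was used. All 38 were found among the 43626 genes of each fibroblast table. The podocyte tables hold only genes past an adjusted p of 0.05, and 7 of their 1990 genes (vehicle) and 32 of their 9578 genes (Adriamycin) were members of the list.

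Lysosomal hydrolases are made in the endoplasmic reticulum, tagged with mannose 6-phosphate in the Golgi apparatus and carried to the lysosome, where they work at acid pH. Most cleave one kind of bond in a chain of reactions, so that glycosaminoglycans, glycoproteins, sphingolipids and other polymers are taken apart step by step. Inherited loss of a single enzyme stores its substrate and causes a lysosomal storage disease, such as Fabry disease for Gla, whose substrate also builds up in podocytes. Many lysosomal genes carry the CLEAR element, a promoter sequence recognised by the transcription factor TFEB and its relatives. MOF, encoded by Kat8, is an acetyltransferase that acetylates lysine 16 of histone H4 and works in the NSL and MSL complexes.

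The series compared cells with and without MOF under 2 conditions by polyadenylated RNA sequencing, in 24 samples that form 8 groups of 3. Mouse embryonic fibroblasts (MEFs) at passage 2 were wild type or Mof knockout. Differentiated cells of MPC5, an established mouse podocyte line, were used at passage 20 with Mof knocked down or with a scramble control. Each of these received the vehicle DMSO or Adriamycin (doxorubicin), a cytotoxic drug that poisons topoisomerases and is used to injure podocytes, for 24 h at 0.1 µg/ml in MEFs and 0.25 µg/ml in podocytes. The labels used here state neither how the knockout was made nor whether replicates came from separate cultures. The p-values therefore cover only the variation between the deposited samples, and that variation may be purely technical. The 4 tables each set 3 MOF-depleted samples against 3 controls and give, for every gene, the mean normalized count over the 6 samples, a log2 fold change (MOF-depleted over control) with its standard error (SE), and a DESeq2 p-value with its Benjamini-Hochberg adjusted value. They hold no value per sample, so neither the depth of a library nor the overlap of single samples can be given.

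Promoter sequence is shown first, because the CLEAR element is the sequence feature for which lysosomal genes are known. RefSeq promoters (250 bases before to 50 after the start, GRCm38.p6) were matched by symbol for 33 of the 38 genes. The letters TCACGTGA, which read the same on both strands and form the core of the CLEAR element, were found in 2 of these 33 genes (6.06%), Gla and Sumf1, and in 304 of 27025 genes with such a window (1.12%). The shorter CACGTG, which is contained in TCACGTGA, was found in 8 of 33 (24.2%), namely Arsa, Gaa, Gla, Glb1, Lgmn, Naglu, Sgsh and Sumf1, and in 2187 of all genes (8.09%). Below are the windows of both genes with the longer motif and of Gaa and Glb1, the other genes whose window lies wholly outside the annotated gene. Each is written 5′ to 3′ on the gene's strand, with the motif in capitals. The window of Gla lies at chrX:134601163-134601255 on the minus strand, that of Sumf1 at chr6:108185584-108185625 on the minus strand, that of Gaa at chr11:119267793-119267858 on the plus strand and that of Glb1 at chr9:114401000-114401065 on the plus strand.
Gla: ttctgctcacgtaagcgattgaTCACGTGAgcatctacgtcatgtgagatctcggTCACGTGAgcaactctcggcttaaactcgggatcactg
Sumf1: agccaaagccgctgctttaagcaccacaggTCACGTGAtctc
Gaa: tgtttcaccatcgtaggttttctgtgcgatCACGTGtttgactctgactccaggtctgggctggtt
Glb1: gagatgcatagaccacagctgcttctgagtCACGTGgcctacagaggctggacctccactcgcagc

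The Gla window holds TCACGTGA in 2 places, 228 to 221 and 195 to 188 bases before the RefSeq start, and that of Sumf1 holds it once, 12 to 5 bases before the start. In the authors' deposited tables of MEFs these 2 genes moved in opposite directions, Gla higher and Sumf1 lower with the knockout, and both were lower with the knockdown in podocytes given Adriamycin. In MEFs with vehicle, the median log2 fold change in the authors' deposited table was 0.40 over the 8 genes with CACGTG and 0.26 over the 25 without it. The ranges overlapped, at -0.34 to 1.20 with CACGTG and -0.53 to 2.05 without it, and the sets were not tested against each other. With Adriamycin the medians in the authors' deposited table of MEFs were 0.17 and 0.15. Among the genes listed for podocytes with Adriamycin, the medians in the authors' deposited table were -0.42 over 6 genes with CACGTG and -0.30 over 21 without. A match of these letters is a description of the window and not a measured binding site.

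Kat8 was lower in the MOF-depleted samples of each of the authors' deposited tables, at 25.7% and 30.5% of control in MEFs with vehicle and Adriamycin and at 35.6% and 42.3% in podocytes, and the direction of the fold changes was read from it. The MEF libraries were rich in fibroblast transcripts: the mean counts of 12 fibroblast markers, such as the collagen gene Col1a1, summed to 659030 in the authors' deposited table for vehicle and 512297 in that for Adriamycin. Of 12 podocyte markers, 3 were listed as higher with the knockdown and 0 as lower in the authors' deposited podocyte table for vehicle. These 3, Synpo, Podxl and Kirrel, were also listed as higher in that for Adriamycin. There 5 of the 12 were listed as higher and 2, not named here, as lower. Their log2 fold changes ran from -1.63 to 1.53 in the authors' deposited table. Nphs1, which encodes the slit diaphragm protein nephrin, was listed in neither of the podocyte tables, and a gene that is not listed has no level in these tables.

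In MEFs given vehicle, 21 of the 38 genes rose with the knockout of Mof and 4 fell (adjusted p below 0.05, DESeq2 in the authors' deposited table), while 13 did not pass. Of all 15605 genes tested there, 37.5% passed, 17.8% as higher and 19.6% as lower. The median log2 fold change in the authors' deposited table was 0.28 over the 38 genes and 0.0080 over all tested genes. The genes that rose at least 2-fold were Hyal1, Aga, Gla and Tpp1. In MEFs given Adriamycin, 13 genes rose, 7 fell and 18 did not pass, against 32.7% of all 14139 tested genes passing, 16.6% as higher and 16.1% as lower. Here the median in the authors' deposited table was 0.15 over the 38 genes and -0.019 over all tested genes, and Gla and Neu1 rose at least 2-fold.

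In podocytes given vehicle, 5 of the 38 genes were listed as higher with the knockdown (Sgsh, Galns, Ppt2, Psap and Lgmn) and 2 as lower (Gusb and Man2b1). From the p-values in the authors' deposited table, 13876 genes had been tested, of which 14.3% passed, 8.7% as higher and 5.64% as lower. In podocytes given Adriamycin, 13 genes rose and 19 fell, and Naglu, Arsa, Ppt1, Acp5, Dnase2a and Pla2g15 were listed in neither podocyte table. Among the 17184 genes tested there, 55.7% passed, 27.8% as higher and 27.9% as lower. Gm2a, Man2b1, Gla, Plbd2 and Fuca1 fell at least 2-fold, and Scpep1 and Ppt2 rose at least 2-fold. All 4 comparisons are of bulk RNA, in which fewer cells of a type and less RNA per cell cannot be told apart.

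**Figure D1:**
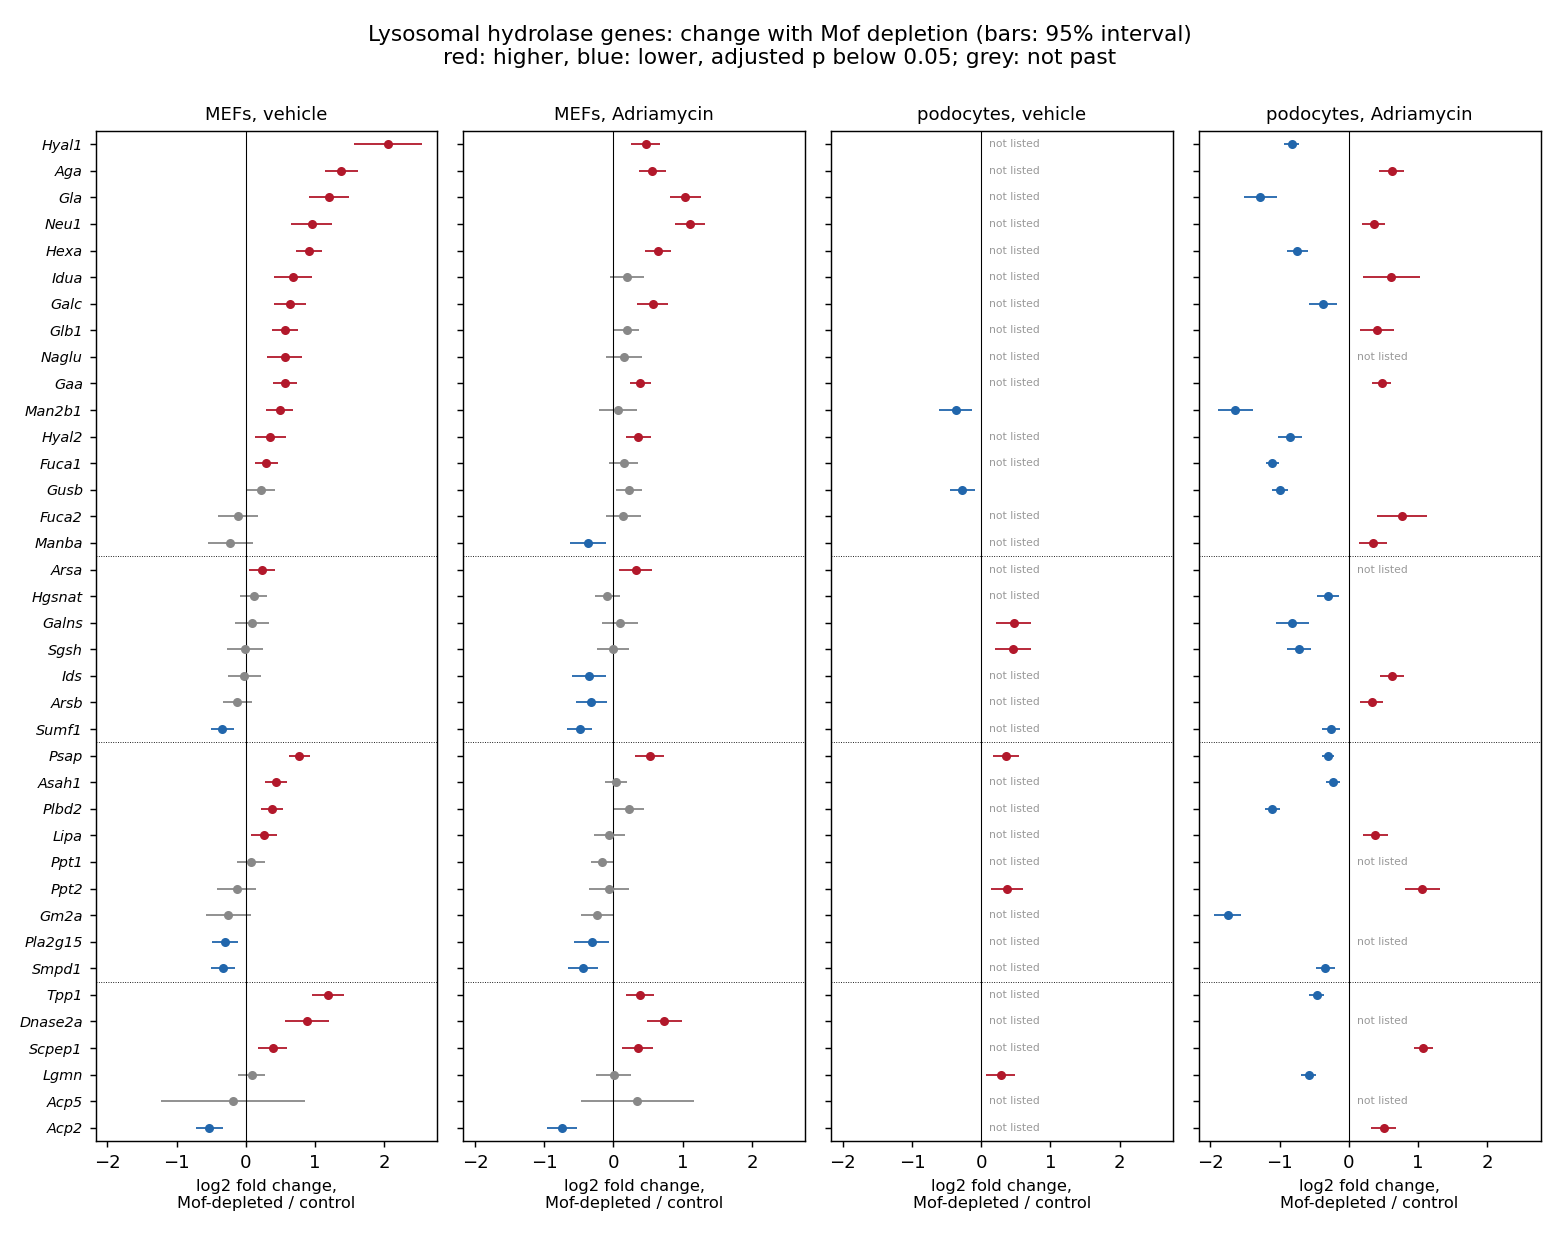
Log2 fold change (MOF-depleted over control, horizontal axis) of the 38 genes (rows) in the 4 comparisons (panels), with bars for the 95% interval from the SE. Red points rose, blue points fell and grey points did not pass an adjusted p of 0.05; rows without a point were not listed. In MEFs with vehicle 21 points are red and 4 blue, and in podocytes with Adriamycin 13 are red and 19 blue.

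The glycosidases made up most of the rise in MEFs. With vehicle, 13 of the 16 rose (81.25%, beside 17.8% of all tested genes) and none fell (beside 19.6%). None was lower at an unadjusted p below 0.05 (DESeq2). With Adriamycin, 8 of the 16 rose (50%) and 1 fell (6.25%), beside 16.6% and 16.1% of all tested genes. Hyal1 encodes a hyaluronidase that cuts hyaluronan and lies at chr9:107576927-107581710 (GRCm38). It had a mean count of 212 and a log2 fold change of 2.05 ± 0.25 (SE; 95% interval 1.56 to 2.54), a 4.15-fold rise, in the authors' deposited table of MEFs with vehicle (adjusted p = 7.38e-15). With Adriamycin its mean count was 2277 and its rise 0.46 ± 0.11 on the log2 scale, or 1.38-fold, in the authors' deposited table (adjusted p = 0.000218). With the knockdown in podocytes given Adriamycin it fell to 56.5% of control, a log2 fold change of -0.82 ± 0.05 in the authors' deposited table (adjusted p = 2.77e-50). Hyal1 shares 1920 exonic bases, 50.8% of its exons, with the neighbouring Naa80 on the same strand, so the authors' counting may have split or dropped reads between these genes and the value for Hyal1 is uncertain.

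Aga encodes aspartylglucosaminidase, which releases asparagine from the glycan of glycoproteins, and lies at chr8:53511727-53523421. It rose 2.60-fold (log2 1.38 ± 0.12, 95% interval 1.14 to 1.62, mean count 1477) in the authors' deposited table of MEFs with vehicle (adjusted p = 1.05e-27). The rise was 1.47-fold with Adriamycin (log2 0.56 ± 0.10, adjusted p = 4.28e-07) and 1.53-fold in podocytes with Adriamycin (log2 0.62 ± 0.09, adjusted p = 1.70e-10), again in the authors' deposited tables. Aga was thus higher with loss of MOF in 3 of the comparisons and not listed in the remaining one. Neu1, the sialidase that removes terminal sialic acid (chr17:34931253-34935953), showed the same pattern of direction. It rose by 0.95 ± 0.15 on the log2 scale (1.93-fold, adjusted p = 8.27e-09) in MEFs with vehicle, by 1.10 ± 0.11 (2.14-fold, adjusted p = 1.02e-20) in MEFs with Adriamycin and by 0.36 ± 0.09 (1.28-fold, adjusted p = 9.87e-05) in podocytes with Adriamycin, in the authors' deposited tables. Gaa, the acid alpha-glucosidase that breaks down lysosomal glycogen, rose in the same 3 comparisons, by 0.56 ± 0.09, 0.39 ± 0.08 and 0.48 ± 0.07 on the log2 scale in the authors' deposited tables, with adjusted p values of 3.89e-09, 8.25e-06 and 2.57e-11.

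Gla, the alpha-galactosidase that trims globotriaosylceramide (chrX:134588149-134601125), rose in MEFs and fell in podocytes. In MEFs it was 2.30-fold higher with vehicle (mean count 442, log2 1.20 ± 0.15, 95% interval 0.91 to 1.49, adjusted p = 2.44e-14) and 2.06-fold higher with Adriamycin (mean count 1216, log2 1.04 ± 0.11, adjusted p = 2.03e-17), in the authors' deposited tables. In podocytes with Adriamycin it fell to 41.3% of control (mean count 254, log2 -1.28 ± 0.12, 95% interval -1.52 to -1.03, adjusted p = 1.04e-23) in the authors' deposited table. Hexa and Galc followed the same directions. Hexa is the alpha subunit of beta-hexosaminidase, which acts on GM2 ganglioside, and had log2 fold changes of 0.91 ± 0.09, 0.64 ± 0.10 and -0.75 ± 0.08 in the authors' deposited tables of MEFs with vehicle, MEFs with Adriamycin and podocytes with Adriamycin (adjusted p = 2.76e-20, 1.57e-09 and 6.56e-21). For Galc, which removes galactose from galactosylceramide, the same authors' deposited tables gave 0.64 ± 0.12, 0.56 ± 0.11 and -0.38 ± 0.10 (adjusted p = 9.02e-07, 1.44e-05 and 0.000521). Hyal2, a hyaluronidase that is largely held at the cell surface, rose by 0.35 ± 0.11 and 0.36 ± 0.09 in MEFs and fell by 0.86 on the log2 scale (SE 0.09) in podocytes with Adriamycin, in the authors' deposited tables (adjusted p = 0.00752, 0.000748 and 3.56e-21).

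Glb1, Naglu, Idua, Man2b1 and Fuca1 rose in MEFs with vehicle and did not pass with Adriamycin. Glb1 is the beta-galactosidase that acts on GM1 ganglioside and whose activity is stained as a mark of senescent cells. Its log2 fold changes were 0.57 ± 0.09 with vehicle (adjusted p = 2.13e-08) and 0.19 ± 0.09 with Adriamycin (adjusted p = 0.0942) in the authors' deposited tables of MEFs, and 0.41 ± 0.13 in that of podocytes with Adriamycin (adjusted p = 0.00229). Idua, which removes iduronic acid from heparan and dermatan sulfate, had log2 fold changes of 0.68 ± 0.14 (adjusted p = 1.32e-05), 0.20 ± 0.13 (adjusted p = 0.230) and 0.61 ± 0.21 (adjusted p = 0.00737) in the same 3 authors' deposited tables. The authors' deposited tables of MEFs gave 0.56 ± 0.13 (adjusted p = 9.69e-05) and 0.15 ± 0.13 (adjusted p = 0.390) for Naglu, an N-acetylglucosaminidase of heparan sulfate.

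Man2b1 and Fuca1 moved in opposite directions in MEFs with vehicle and in podocytes with Adriamycin. Man2b1, the lysosomal alpha-mannosidase (chr8:85083270-85098282), rose in MEFs with vehicle (log2 0.49 ± 0.10, adjusted p = 1.01e-05) and was at 0.06 ± 0.14 with Adriamycin (adjusted p = 0.760), in the authors' deposited tables. In podocytes it fell by 0.37 ± 0.12 with vehicle (adjusted p = 0.0213) and by 1.64 ± 0.13 with Adriamycin, where the knockdown stood at 32.1% of control (adjusted p = 5.12e-36), on the log2 scale of the authors' deposited tables. Fuca1, the tissue alpha-fucosidase, rose by 0.30 ± 0.09 in MEFs with vehicle (adjusted p = 0.00296), was at 0.15 ± 0.11 with Adriamycin (adjusted p = 0.293) and fell to 46.5% of control in podocytes with Adriamycin (log2 -1.10 ± 0.05, adjusted p = 1.81e-118), in the authors' deposited tables. Its paralog Fuca2 did the reverse in podocytes, with 0.76 ± 0.19 in the authors' deposited table for Adriamycin (adjusted p = 9.89e-05), and did not pass in either MEF table.

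Gusb and Manba were the remaining glycosidases. Gusb, the beta-glucuronidase, did not pass in MEFs (0.21 ± 0.10, adjusted p = 0.0910, and 0.22 ± 0.09, adjusted p = 0.0523) and fell in podocytes, by 0.27 ± 0.09 with vehicle (adjusted p = 0.0317) and by 0.99 ± 0.06 with Adriamycin (adjusted p = 6.02e-62), on the log2 scale of the authors' deposited tables. When the fold changes of MEFs with Adriamycin were centred on the median gene, Gusb passed (adjusted p = 0.0337). Manba, the beta-mannosidase, was the 1 glycosidase that fell in MEFs with Adriamycin (-0.37 ± 0.14, adjusted p = 0.0242), while it rose in podocytes with Adriamycin (0.35 ± 0.11, adjusted p = 0.00196), in the authors' deposited tables.

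Of the sulfatases and the proteins that serve them, 1 of 7 genes rose and 1 fell in MEFs with vehicle (14.3% each). Of all tested genes, 17.8% rose and 19.6% fell there. With Adriamycin 1 rose (14.3%) and 3 fell (42.9%), beside 16.6% and 16.1% of all tested genes. Arsa, the sulfatase of sulfatide, rose by 0.24 ± 0.10 (adjusted p = 0.0386) and 0.32 ± 0.12 (adjusted p = 0.0333) on the log2 scale of the authors' deposited tables of MEFs. Both calls were lost when the adjustment ran over all genes with a p-value (adjusted p = 0.0575 and 0.0637). Sumf1 converts the active-site cysteine of every sulfatase to formylglycine. It was the 1 member of the group that fell in 3 of the authors' deposited tables, by 0.34 ± 0.09 in MEFs with vehicle (adjusted p = 0.000557), by 0.49 ± 0.09 with Adriamycin (adjusted p = 2.66e-06) and by 0.26 ± 0.07 in podocytes with Adriamycin (adjusted p = 0.000238).

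Ids, the iduronate sulfatase, and Arsb, the sulfatase of dermatan and chondroitin sulfate, fell in MEFs with Adriamycin and rose in podocytes with Adriamycin. Ids had log2 fold changes of -0.35 ± 0.13 (adjusted p = 0.0191) and 0.62 ± 0.09 (adjusted p = 1.40e-11), and Arsb of -0.32 ± 0.11 (adjusted p = 0.0168) and 0.33 ± 0.08 (adjusted p = 0.000219), in the authors' deposited tables. Sgsh and Galns, sulfatases of heparan sulfate and of keratan and chondroitin sulfate, were near 0 in both MEF comparisons, with log2 fold changes between -0.01 and 0.10 in the authors' deposited tables. In podocytes both were higher with vehicle and lower with Adriamycin. Sgsh had 0.47 ± 0.13 (adjusted p = 0.00643) and -0.72 ± 0.09 (adjusted p = 4.63e-16), and Galns 0.47 ± 0.13 (adjusted p = 0.00502) and -0.82 ± 0.12 (adjusted p = 4.41e-11), in the authors' deposited podocyte tables. Hgsnat, which acetylates glucosamine ends of heparan sulfate, fell in podocytes with Adriamycin by 0.30 ± 0.08 on the log2 scale of the authors' deposited table (adjusted p = 0.000505) and did not pass in MEFs.

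Among the lipid and thioester hydrolases and their activators, 4 of 9 rose (44.4%) and 2 fell (22.2%) in MEFs with vehicle. Of all tested genes, 17.8% rose and 19.6% fell there. In MEFs with Adriamycin 1 rose (11.1%) and 2 fell (22.2%), beside 16.6% and 16.1% of all tested genes. In podocytes with Adriamycin 2 rose (22.2%) and 5 fell (55.6%), beside 27.8% and 27.9%. Psap, the precursor of the saposins that present sphingolipids to their hydrolases (chr10:60277627-60302597), was the 1 gene of the 38 past the threshold in all 4 comparisons. It rose by 0.77 ± 0.08 in MEFs with vehicle (1.71-fold, mean count 15743, adjusted p = 4.19e-21), by 0.52 ± 0.11 in MEFs with Adriamycin (adjusted p = 1.38e-05) and by 0.36 ± 0.10 in podocytes with vehicle (adjusted p = 0.00295), and fell by 0.30 ± 0.04 in podocytes with Adriamycin (adjusted p = 1.50e-11), on the log2 scale of the authors' deposited tables. It was also the most abundant listed member per length in every table, at 5737 mean counts per 1000 exonic bases in the authors' deposited table of MEFs with vehicle, followed by Scpep1 with 3161 and Asah1 with 1792. In the authors' deposited table of podocytes with Adriamycin, Psap stood at 6880 per 1000 bases, followed by Man2b1 with 2513 and Tpp1 with 1416.

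Asah1, the acid ceramidase, rose by 0.44 ± 0.08 in MEFs with vehicle (adjusted p = 2.43e-07), was at 0.04 ± 0.08 with Adriamycin (adjusted p = 0.760) and fell by 0.23 ± 0.05 in podocytes with Adriamycin (adjusted p = 4.94e-05), on the log2 scale of the authors' deposited tables. Plbd2, a phospholipase B-like protein, had log2 fold changes of 0.38 ± 0.08 (adjusted p = 1.08e-05), 0.22 ± 0.11 (adjusted p = 0.104) and -1.11 ± 0.05 (46.4% of control, adjusted p = 8.42e-92) in the same authors' deposited tables. Lipa, the acid lipase of cholesteryl esters, rose in MEFs with vehicle by 0.26 ± 0.09 (adjusted p = 0.0156) and in podocytes with Adriamycin by 0.38 ± 0.09 (adjusted p = 0.000110), on the log2 scale of the authors' deposited tables.

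Smpd1, the acid sphingomyelinase, fell in the 3 comparisons that list it: by 0.33 ± 0.09 (adjusted p = 0.000824), 0.44 ± 0.11 (adjusted p = 0.000531) and 0.34 ± 0.07 (adjusted p = 3.59e-06) on the log2 scale of the authors' deposited tables. Pla2g15, a lysosomal phospholipase A2, fell in both MEF comparisons, by 0.30 ± 0.10 (adjusted p = 0.00600) and 0.31 ± 0.13 (adjusted p = 0.0476) in the authors' deposited tables. With Adriamycin this call was lost when fold changes were centred on the median gene (adjusted p = 0.0649) or adjusted over all genes with a p-value (adjusted p = 0.0907). Gm2a, the activator that lifts GM2 ganglioside out of the membrane for beta-hexosaminidase (chr11:55098115-55113029), did not pass in MEFs (-0.25 ± 0.17 and -0.23 ± 0.12 in the authors' deposited tables). In podocytes with Adriamycin it had the lowest log2 fold change of the 32 listed members, -1.75 ± 0.10 (95% interval -1.95 to -1.55), which left 29.8% of control in the authors' deposited table (adjusted p = 2.00e-66).

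The palmitoyl-protein thioesterases Ppt1 and Ppt2 did not pass in MEFs. Ppt2 was higher with the knockdown in both podocyte comparisons, by 0.37 ± 0.12 with vehicle (adjusted p = 0.0137) and by 1.06 ± 0.13 with Adriamycin (2.09-fold, adjusted p = 4.82e-16), on the log2 scale of the authors' deposited tables. Ppt2 shares 957 exonic bases, 36.6% of its exons, with Gm20460 on the same strand, so its value is uncertain too. In all, 15 of the 38 genes share exonic bases with another gene, among them Arsb, Dnase2a, Sgsh, Arsa, Hexa and Acp2, whose partners lie on the opposite strand. The sources do not give whether strand was used in counting, and without it reads of such pairs cannot be told apart.

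Among the peptidases, phosphatases and the nuclease, Tpp1, Scpep1 and Dnase2a rose and Acp2 fell in both MEF comparisons. Tpp1, the tripeptidyl peptidase lost in a childhood form of Batten disease (chr7:105744811-105752235), rose 2.27-fold with vehicle (mean count 3845, log2 1.18 ± 0.12, 95% interval 0.96 to 1.41, adjusted p = 1.34e-22) and 1.31-fold with Adriamycin (mean count 11117, log2 0.39 ± 0.10, adjusted p = 0.00116), in the authors' deposited tables of MEFs. It fell to 72.4% of control in podocytes with Adriamycin (log2 -0.47 ± 0.05, adjusted p = 1.05e-16) in the authors' deposited table. Scpep1, a serine carboxypeptidase, rose in all 3 comparisons that list it, by 0.39 ± 0.10 (adjusted p = 0.00110) and 0.35 ± 0.11 (adjusted p = 0.00985) in MEFs and by 1.08 ± 0.07 in podocytes with Adriamycin (2.11-fold, adjusted p = 6.22e-54), on the log2 scale of the authors' deposited tables. For Dnase2a, the acid nuclease that degrades DNA in lysosomes, the authors' deposited tables of MEFs gave 0.89 ± 0.16 (1.85-fold, adjusted p = 4.56e-07) and 0.73 ± 0.13 (1.66-fold, adjusted p = 3.76e-07).

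Acp2, the lysosomal acid phosphatase (chr2:91202885-91214098), had the lowest log2 fold change of the 38 genes in both MEF comparisons. It fell to 69.4% of control with vehicle (log2 -0.53 ± 0.10, adjusted p = 1.31e-06) and to 59.8% with Adriamycin (log2 -0.74 ± 0.11, 95% interval -0.96 to -0.52, adjusted p = 2.20e-09), in the authors' deposited tables. Podocytes given Adriamycin had it 1.42-fold higher with the knockdown (log2 0.50 ± 0.09, adjusted p = 2.98e-07) in the authors' deposited table. Lgmn, the asparaginyl endopeptidase legumain, was at 0.09 ± 0.10 and 0.00 ± 0.13 in MEFs, rose by 0.28 ± 0.10 in podocytes with vehicle (adjusted p = 0.0496) and fell by 0.58 ± 0.05 with Adriamycin (adjusted p = 1.61e-25), in the authors' deposited tables. Acp5, the tartrate-resistant phosphatase of osteoclasts and macrophages, had mean counts of only 11.6 and 21.2 in the authors' deposited tables of MEFs, and its 95% interval with vehicle, -1.23 to 0.86, is too wide to show a change of 1.5-fold.

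Both MEF comparisons moved the genes in like directions, as they did most of all genes that passed in both. Of the 17 genes past the threshold in both authors' deposited tables, 13 were higher in both, 4 lower in both and none opposite. Over all genes, 2923 passed in both of the authors' deposited tables and 79 of them (2.70%) had opposite signs. The test of the difference between the log2 fold changes, run over 13973 genes with an adjusted p in both tables, found 4 members whose change was lower with Adriamycin and none whose change was higher. At an unadjusted p below 0.05 these counts were 10 and 0, beside 1404 lower and 1388 higher among the 13973 genes. Among all genes 7.09% passed this test, 3.49% as higher with Adriamycin and 3.61% as lower.

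The 4 were Hyal1, with a difference of -1.59 ± 0.27 on the log2 scale (Adriamycin minus vehicle, adjusted p = 1.13e-06), Aga with -0.82 ± 0.16 (adjusted p = 1.77e-05), Tpp1 with -0.80 ± 0.15 (adjusted p = 2.73e-05) and Asah1 with -0.40 ± 0.11 (adjusted p = 0.0123). In each the rise seen with vehicle was smaller with Adriamycin. For Asah1 the call was lost when the test statistic was divided by its robust spread over all genes (adjusted p = 0.371). The differences of Glb1 (-0.38 ± 0.13, adjusted p = 0.0542), Idua (-0.48 ± 0.19, adjusted p = 0.103) and Man2b1 (-0.43 ± 0.17, adjusted p = 0.118) did not pass, so a vehicle-specific rise was not shown for them. The difference was below 0 in 28 of the 38 genes, with a median of -0.16, and in 7399 of 13973 genes, with a median of -0.023.

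**Figure D2:**
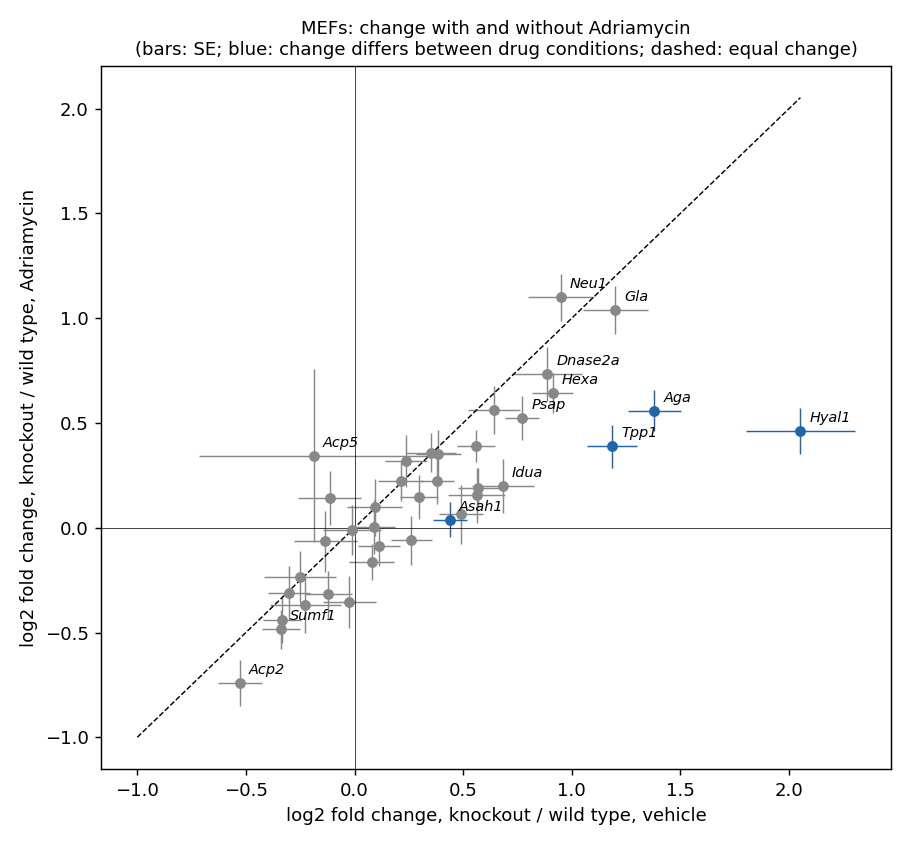
Log2 fold change of the 38 genes in MEFs (knockout over wild type) with vehicle (horizontal axis) against that with Adriamycin (vertical axis), with bars for the SE and a dashed line where both are equal. The 4 blue points, Hyal1, Aga, Tpp1 and Asah1, lie below the line and are the genes whose change differed between the drug conditions; Hyal1 lies at 2.05 and 0.46.

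Levels of the genes also stood apart between the drug tables of one cell type. These tables were normalized separately by the authors, so the ratios of mean counts that follow were not tested. The mean count in the authors' deposited table of MEFs with Adriamycin was above that with vehicle for 36 of the 38 genes, with a median ratio of 1.42 against 1.08 over the 10098 genes whose mean counts reached 100. Hyal1 went from 212 to 2277, a ratio of 10.7, Man2b1 from 1610 to 11291, a ratio of 7.01, and Fuca1 from 998 to 4897, a ratio of 4.91, between the authors' deposited tables. Tpp1, Gla and Aga had ratios of 2.89, 2.75 and 2.09. At 2 or more were thus 6 of the 38 members, beside 6.02% of all those genes. In podocytes, where 7 members were listed in both of the authors' deposited tables, Man2b1 went from 2286 to 20172, a ratio of 8.82, Sgsh had a ratio of 2.15 and Ppt2 of 0.377. The median ratio was 1.18 over the 7 members and 0.853 over 1336 genes. At 2 or more were 2 of the 7 members, beside 12.7% of those genes.

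**Figure D3:**
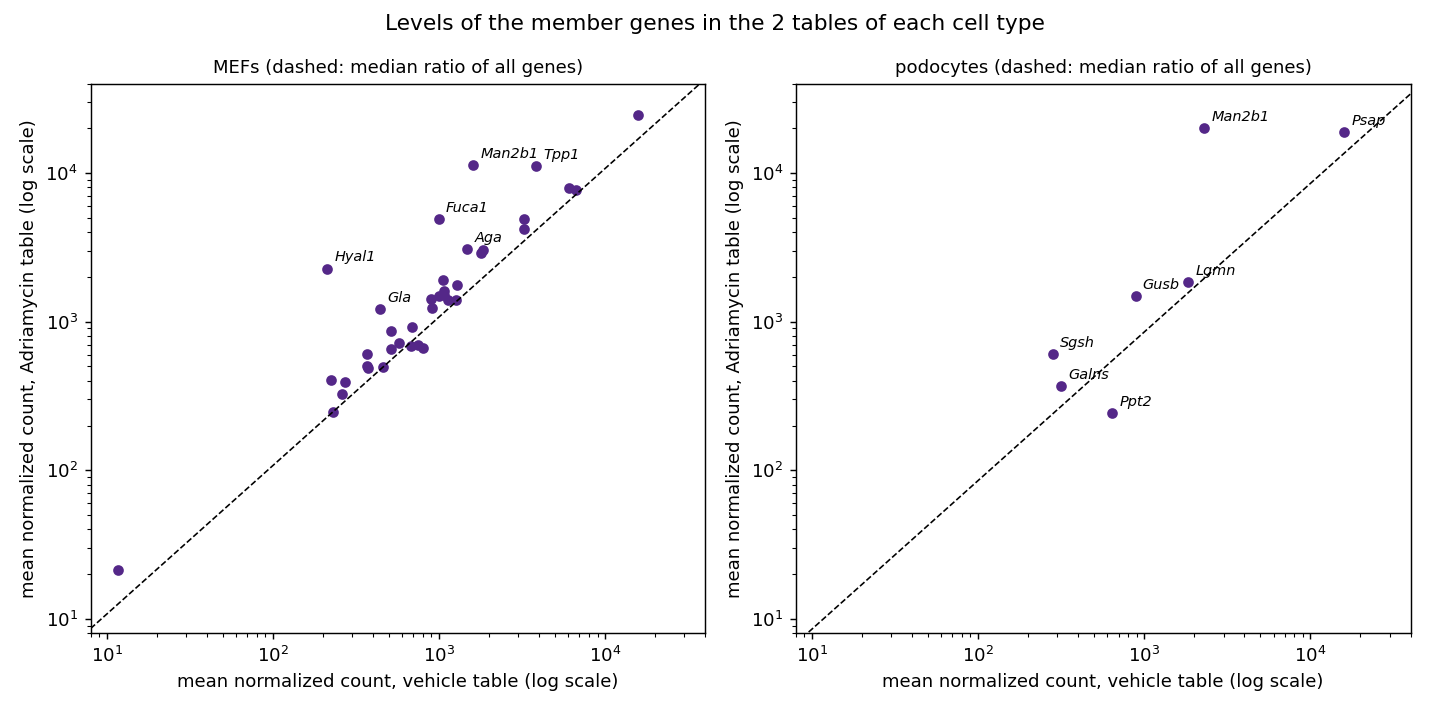
Mean normalized count of each gene in the vehicle table (horizontal axis, log scale) and in the Adriamycin table (vertical axis, log scale), for MEFs with 38 genes and podocytes with the 7 listed in both tables; the dashed line is the median ratio of all genes. Hyal1, Man2b1 and Fuca1 lie farthest above the line in MEFs, and Man2b1 in podocytes. The tables were normalized separately and the ratios were not tested.

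Between MEFs with vehicle and podocytes with Adriamycin, which share no sample, directions were often opposite, though less often than over all genes. Of the 21 genes past the threshold in both of these authors' deposited tables, 11 were higher in MEFs and lower in podocytes (Hexa, Galc, Gla, Man2b1, Fuca1, Asah1, Tpp1, Psap, Hyal1, Hyal2 and Plbd2), and 1, Acp2, was lower in MEFs and higher in podocytes. The other 9 moved in the same direction, 7 of them higher in both (Gaa, Glb1, Idua, Neu1, Lipa, Scpep1 and Aga) and 2 lower in both (Smpd1 and Sumf1). The share of opposite signs was thus 57.1% among these genes and 68.9% among all 4003 genes past the threshold in both of the authors' deposited tables. With Adriamycin in both cell types, 11 of 17 genes had opposite signs (64.7%), against 2376 of 3191 genes (74.5%), in the authors' deposited tables. Dose, passage, cell type and the way MOF was removed differ together between these comparisons and cannot be told apart. Between MEFs with vehicle and podocytes with Adriamycin, the presence of the drug differs as well.

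**Figure D4:**
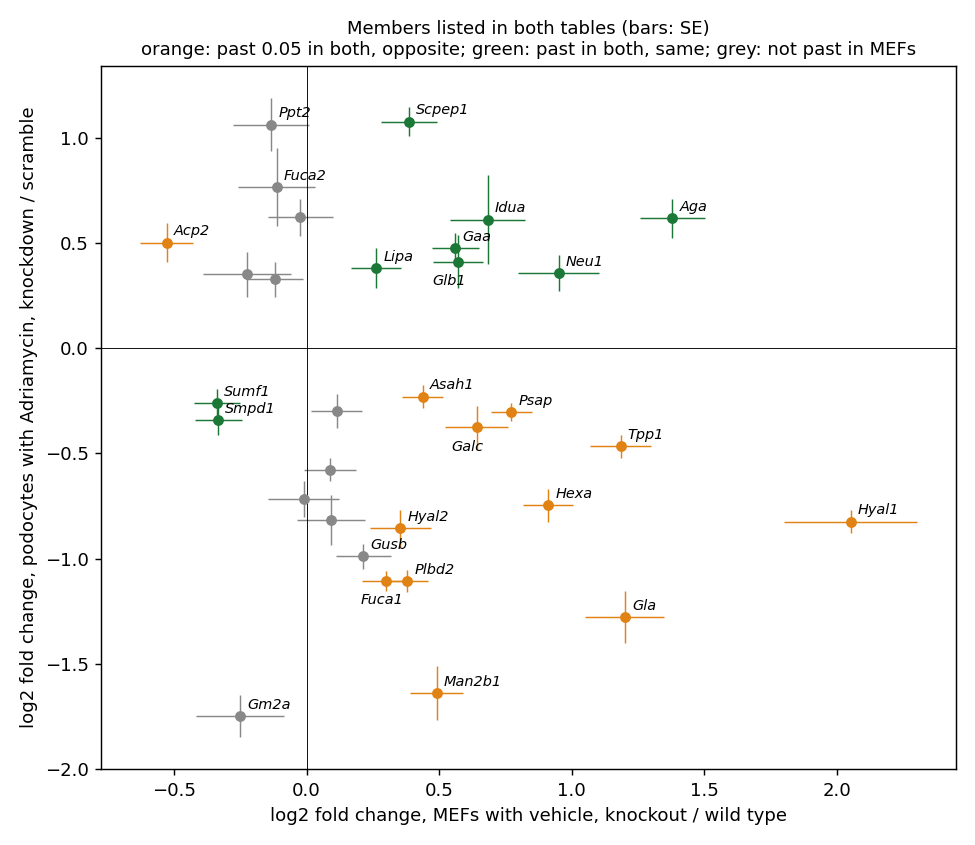
Log2 fold change with loss of MOF in MEFs with vehicle (horizontal axis) against podocytes with Adriamycin (vertical axis) for the 32 genes listed in both tables, with bars for the SE. Orange points (12) passed in both with opposite signs, green points (9) passed in both with the same sign, and grey points did not pass in MEFs; Gla, Man2b1, Fuca1 and Plbd2 lie at the lower right.

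Within podocytes, 7 genes were listed in both of the authors' deposited tables. Gusb and Man2b1 were lower in both and Ppt2 was higher in both, while Sgsh, Galns, Psap and Lgmn were higher with vehicle and lower with Adriamycin. These 4 of 7 (57.1%) stand beside 521 of the 1518 genes listed in both of the authors' deposited tables (34.3%). The difference between the podocyte comparisons was not tested, since these tables list only genes past the threshold.

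Other genes of the lysosome were read from lists in the same tables. Their counts stand beside 17.8% of all tested genes higher and 19.6% lower in MEFs with vehicle. The same shares were 16.6% and 16.1% in MEFs with Adriamycin, and 27.8% and 27.9% in podocytes with Adriamycin. Of 26 genes of the lysosomal membrane and the proton pump (V-ATPase), 25 rose in MEFs with vehicle and 23 with Adriamycin, and none fell, also at an unadjusted p below 0.05 (DESeq2). In podocytes with Adriamycin 17 of the 26 fell and 2 rose. Npc2, a soluble lysosomal protein kept in this list, takes part in the export of cholesterol from the lysosome. It had log2 fold changes of 1.12 ± 0.07, 0.88 ± 0.08 and -1.22 ± 0.05 in the authors' deposited tables of MEFs with vehicle, MEFs with Adriamycin and podocytes with Adriamycin. Of 12 cathepsins, 6 rose and 1 fell in each MEF comparison, and 1 rose and 7 fell in podocytes with Adriamycin, with Ctsd at 1.41 ± 0.10, 0.52 ± 0.07 and -0.93 ± 0.04 in the same authors' deposited tables.

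Of 12 hydrolases outside the 38 genes, 10 had an adjusted p in each MEF comparison. Among these, 5 rose and 2 fell in MEFs with vehicle, and 2 rose and 3 fell with Adriamycin. In podocytes with Adriamycin 4 of the 12 rose and 6 fell. Another list held 10 genes that tag and sort hydrolases by mannose 6-phosphate or other receptors. In MEFs with vehicle 2 of them rose (20%, beside 17.8% of all tested genes). In MEFs with Adriamycin 4 rose (40%, beside 16.6%), and none fell in either comparison. At an unadjusted p below 0.05 (DESeq2), 1 of them was lower with vehicle and 0 with Adriamycin. In podocytes with vehicle 3 of the 10 were listed as lower and none as higher, beside the 5.64% of all tested genes that were lower. Of the 10, podocytes given Adriamycin had 3 that rose and 4 that fell. Scarb2, the receptor that brings glucocerebrosidase to the lysosome, had 0.78 ± 0.13 and 0.67 ± 0.09 in MEFs and -0.62 ± 0.18 and -1.16 ± 0.06 in podocytes with vehicle and Adriamycin, in the authors' deposited tables.

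Of 10 genes of the TFEB family and its upstream control, 7 rose and none fell in MEFs with vehicle, also at an unadjusted p below 0.05 (DESeq2). With Adriamycin 9 of the 10 had an adjusted p in MEFs, of which 6 rose and 1 fell. In podocytes with Adriamycin 2 of the 10 rose and 6 fell. Rragd, a Rag GTPase that ties lysosomal nutrient sensing to mTORC1, had 2.38 ± 0.26, 1.56 ± 0.22 and -1.39 ± 0.14 in the authors' deposited tables of MEFs with vehicle, MEFs with Adriamycin and podocytes with Adriamycin. Flcn, the folliculin that acts on it, had 1.17 ± 0.12, 0.69 ± 0.11 and -1.28 ± 0.07 in the same authors' deposited tables. Tfeb itself did not pass in MEFs with vehicle (-0.33 ± 0.23, adjusted p = 0.260) and fell by 1.39 ± 0.13 in podocytes with Adriamycin, in the authors' deposited tables.

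Macrophages are rich in lysosomal hydrolases, and their markers moved in MEFs as well. Of 15 listed macrophage and leukocyte markers, 9 rose with the knockout in MEFs with vehicle and none fell, also at an unadjusted p below 0.05 (DESeq2), with a median log2 fold change of 0.83 in the authors' deposited table. Their mean counts summed to 4688 there and to 7083 with Adriamycin, beside 63897 and 111559 for the 38 genes in the authors' deposited tables. With Adriamycin 1 of the 15 rose (Cd53) and the median was 0.30 in the authors' deposited table. The shares of all tested genes were 17.8% higher and 19.6% lower with vehicle, and 16.6% and 16.1% with Adriamycin. Lyz2, the lysozyme gene of myeloid cells, had 1.29 ± 0.36 with vehicle (mean count 1924, adjusted p = 0.00140) and 0.73 ± 0.39 with Adriamycin (adjusted p = 0.145) in the authors' deposited tables. Ptprc, the pan-leukocyte gene for CD45, had a mean count of 58.1 and a log2 fold change of 0.36 ± 0.30 with vehicle in the authors' deposited table and did not pass (adjusted p = 0.381). None of the 15 was at 0 in the authors' deposited table for vehicle, where their mean counts ran from 58.1 for Ptprc to 1924 for Lyz2; the tables do not give a level for each group. The authors' deposited podocyte tables list 1 of these markers as higher with vehicle, and 1 as higher and 3 as lower with Adriamycin. Beside them, 8.7% of all tested genes were higher with vehicle, and 27.8% were higher and 27.9% lower with Adriamycin. The part of these markers in the changes of the hydrolase genes was not tested.

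**Figure D5:**
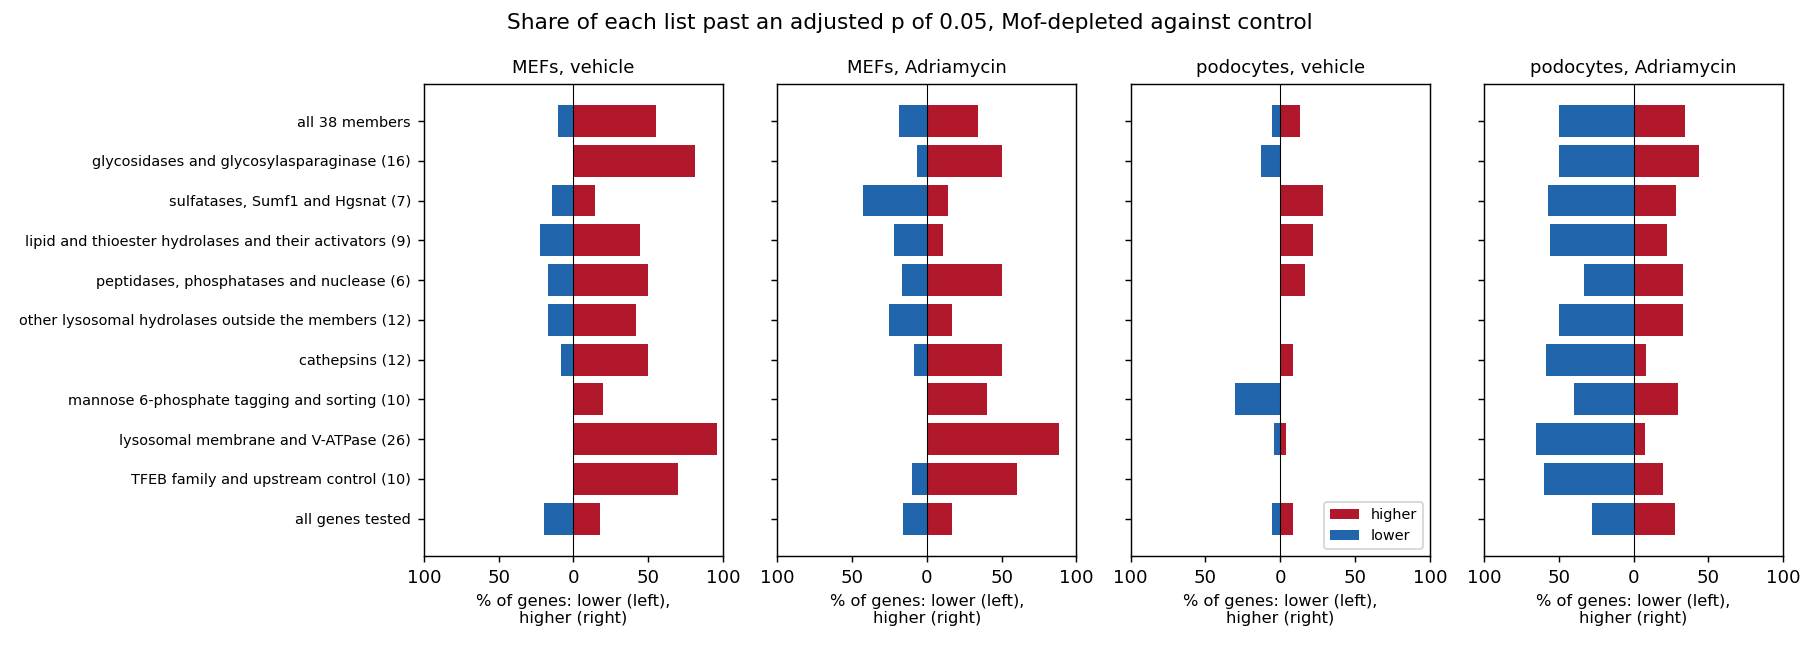
Percentage of genes past an adjusted p of 0.05 (horizontal axis, higher to the right in red, lower to the left in blue) for the 38 genes, their role groups and the other lists (rows, number of genes in parentheses), in the 4 comparisons (panels); the last row is all genes tested. The lysosomal membrane and V-ATPase list reaches 25 of 26 genes higher in MEFs with vehicle and 17 of 26 lower in podocytes with Adriamycin.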

How the data were processed

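RNA was sequenced in 24 samples. Per the submitters' processing notes, the tools were DESeq2 1.4.1, TopHat2 2.0.13 and featureCounts 1.4.5-p1 and the build was GRCm38; the notes name no role for each. No annotation or strand setting is given in the sources. The deposited tables hold the authors' mean normalized count (a signal averaged over the 6 samples of a table), log2 fold change with SE, Wald score and p-value with its adjusted value. DESeq2 of that version shrinks log2 fold changes by default, and whether the authors kept this is not stated. Direction was read from the sign of Kat8. The number of genes tested in the podocyte tables, which the authors cut at an adjusted p of 0.05, was recovered from the deposited p-values.

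Calls used the authors' adjusted p below 0.05. Whether a change in MEFs differed between drug conditions was tested by a z statistic from the log2 fold changes and SEs, two-sided. Benjamini-Hochberg adjustment ran over all genes with an adjusted p in both tables. The procedure was checked on simulated data whose errors were drawn from the deposited SEs. That check cannot show whether these SEs cover the real spread. Over all genes the robust spread of the z statistic was 1.43, wider than the test assumes. Intervals are normal at 95%. Python 3.11.15, pandas 2.3.3 and scipy 1.17.1 were used. Gene positions, exon lengths and overlaps come from the GENCODE annotation of GRCm38, promoters from RefSeq. The genes and all lists were chosen with earlier results of these data known. Full values are given for genes past the threshold in at least 3 tables, with opposite signs in 2 tables, with a drug difference, at the extremes of each MEF table or most abundant per length. Of each other list at most 3 genes are named, from those with the largest past-threshold changes, and Ptprc and Cd53 were named after their values were seen. Nphs1 was named besides, although neither podocyte table lists it. Alternatives were another adjustment, stricter p and fold thresholds, a mean count minimum, centring on the median gene and scaling of the z statistic.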

Additional observations from a re-analysis of the deposited data

Results flagged for a closer look

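In 4 genes, the change with knockout of Mof in MEFs differed between Adriamycin and vehicle by the z test of the difference between the log2 fold changes of the authors' deposited tables. The difference, Adriamycin minus vehicle on the log2 scale, was -1.59 for the hyaluronidase Hyal1, -0.82 for the aspartylglucosaminidase Aga, -0.80 for the peptidase Tpp1 and -0.40 for the acid ceramidase Asah1. This test was passed by 7.09% of 13973 genes, 3.61% as lower with Adriamycin. The call of Asah1 was lost when the z statistic was divided by its robust spread of 1.43 (adjusted p = 0.371, z test). Hyal1 shares 50.8% of its exons with Naa80, so its value is uncertain. Each of the 4 was higher in the knockout with vehicle. The mean count of each was higher in the Adriamycin table, as it was for 36 of the 38 genes. The ratio of mean counts between these tables was 10.7 for Hyal1, 2.89 for Tpp1, 2.09 for Aga and 1.31 for Asah1, beside a median of 1.42 over the 38 genes. Man2b1 and Fuca1 had ratios of 7.01 and 4.91, and their differences did not pass. The part of these levels in the differences was not tested.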

How the results depend on the processing

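The counts of genes that passed moved most with a minimum change of 1.5-fold. In MEFs with vehicle, 10 then rose and 0 fell (21 and 4 without it), in MEFs with Adriamycin 4 rose and 1 fell (13 and 7), in podocytes with vehicle 0 rose and 0 fell (5 and 2), and in podocytes with Adriamycin 6 rose and 11 fell (13 and 19). With an adjusted p below 0.01, 3 genes fell in MEFs with Adriamycin, and 3 rose and 0 fell in podocytes with vehicle. Leaving out the 15 genes that share exonic bases with another gene, an alternative chosen after seeing the data, left 23 genes. Of these 23, 12 rose and 3 fell in MEFs with vehicle, and 7 rose and 5 fell in MEFs with Adriamycin. In podocytes 3 rose and 2 fell with vehicle, and 7 rose and 14 fell with Adriamycin. Fewer genes were counted by construction in each of these settings. The shares of all genes that pass under them are not given here. Centring on the median gene turned the log2 fold change of Sgsh in MEFs with Adriamycin from -0.01 to 0.0095, neither past the threshold. The count of 4 genes with a smaller change under Adriamycin was 3 to 5 under its alternatives.

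No paired analysis was possible because the authors' deposited tables hold no value per sample. For the same reason no sample was left out in turn and library depth is not known, so the share of 1 library in a change is not visible. Genes with few reads, such as Acp5, allow only wide intervals.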

Other observations

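The genes can also be read by substrate. Of all tested genes, 17.8% rose and 19.6% fell in MEFs with vehicle, and 16.6% rose and 16.1% fell in MEFs with Adriamycin. In podocytes with Adriamycin these shares were 27.8% and 27.9%. Of 10 genes of sphingolipid breakdown, 8 rose and 1 fell in MEFs with vehicle (median log2 fold change 0.61 in the authors' deposited table), and 6 rose and 1 fell with Adriamycin (median 0.42). In podocytes with Adriamycin 2 of the 10 rose and 7 fell, with a median of -0.34 over the listed genes in the authors' deposited table. The 1 that fell in both MEF comparisons was Smpd1, the acid sphingomyelinase. The genes of glycoprotein breakdown, 7 in number, had 6 that rose and none that fell with vehicle in MEFs (also none lower at an unadjusted p below 0.05, DESeq2), 3 that rose and 1 that fell with Adriamycin, and 4 that rose and 3 that fell in podocytes with Adriamycin.

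Of the 6 genes of heparan sulfate breakdown, 2 rose in MEFs with vehicle (33.3%, beside 17.8% of all tested genes) and 1 fell with Adriamycin (16.7%, beside 16.1%). Those 2 were Idua and Naglu, and the 1 was Ids. In podocytes with Adriamycin 2 of the 6 rose, Ids and Idua, and 3 fell, Gusb, Sgsh and Hgsnat. Several genes stand in more than 1 of these lists, such as Hexa, Neu1 and Glb1, so the lists are not independent, and no list was tested against the others.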
